A study of Mus musculus with 4 samples.

Results

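Mitochondrial apoptosis was read from 9 genes: the factors released from mitochondria (Htra2, Diablo and Cycs), the apoptosome (Apaf1 and Casp9), the caspase inhibitor Xiap, the guards Bcl2l1 and Mcl1, and the pore former Bak1. They were chosen by symbol for their roles, with earlier results of these data known, and made up 9 of the 18436 rows of the deposited expression table. RNA had been extracted from Lgr5-GFPhigh cells, intestinal crypt cells sorted for bright GFP, and 2 mice of each of 2 genotypes were compared. The Lgr5-CREPTWT mice carried Lgr5-EGFP-IRES-creERT2, an allele that places GFP and a tamoxifen-inducible Cre under the Lgr5 gene. The Lgr5-CREPTKO mice carried Lgr5-GFP-CreERT2 together with CREPT fl/fl, so that Cre removes CREPT (gene symbol Rprd1b), a protein that binds RNA polymerase II. All mice were C57BL/6, and both genotypes were given the same tamoxifen course, a daily intraperitoneal dose of 1 mg on 5 days, before sorting on day 7. Deletion was therefore directed to Lgr5-expressing cells, and only cells still bright for GFP on that day were read. The allele is expressed in patches, so crypts that silence it contribute no cells. The study used mice of both sexes aged from 6 to 8 weeks, and the age and sex of each of these 4 are not given in the sources used here.

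In the mitochondrial route to cell death, BH3-only proteins release the pore formers Bak1 and Bax from guards such as Bcl-xL (Bcl2l1) and Mcl1. The opened outer membrane lets cytochrome c (Cycs) reach Apaf1, which assembles with caspase-9 into the apoptosome, while Diablo (Smac) and Htra2 (Omi) bind Xiap and relieve its hold on caspases. Htra2 is also a serine protease that serves protein quality control inside healthy mitochondria. In the intestine, apoptosis removes damaged cells from the crypts.

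Values were FPKM, fragments divided by transcript length and by the size of the library, so levels of different genes can be set side by side. FPKM values do not add up to a fixed total. Over all rows they summed to 495758 and 499327 in the Lgr5-CREPTWT mice and to 468830 and 473662 in the Lgr5-CREPTKO mice. The main comparison made no rescaling for this. Changes are given as log2 fold changes, Lgr5-CREPTKO minus Lgr5-CREPTWT, taken from log2(FPKM + 0.5), and were tested in limma by its moderated test. The scale understates changes of genes near 0.5 FPKM or below. A gene was called at a Benjamini-Hochberg adjusted p under 0.05 over the 12621 genes whose mean reached 0.5 FPKM, of which 389, or 3.08%, were called in either direction. With 2 mice a genotype, 0.333 is the smallest two-sided p that exact permutation allows, so calls rest on the variance limma shares among genes. Rprd1b, the targeted gene (chr2:158028475-158078207, plus strand, GRCm38.p6), was at 17.69 and 18.09 FPKM in the Lgr5-CREPTWT mice and at 6.65 and 7.36 FPKM in the Lgr5-CREPTKO mice, lower by a log2 fold change of -1.29 ± 0.0946 (SE; limma adjusted p = 0.028). The 4 libraries were estimated at 17750000 to 18500000 fragments from the steps of low FPKM values, of which 68.1% to 73.3% lay within 0.15 of a whole fragment, so these depths are approximate. All 5 stem cell markers listed (Lgr5, Olfm4, Ascl2, Smoc2 and Axin2) were detected in every mouse.

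Of the 9 genes, 1 was called lower in Lgr5-CREPTKO cells, Htra2, against 2.67% of all genes tested called lower. None was called higher, against 0.412% of all genes. Cycs lay at 0.742 of its Lgr5-CREPTWT level and narrowly missed the threshold. Apaf1, Casp9, Xiap and Bcl2l1 had fold changes close to 1 with overlapping mice. The median log2 fold change of the 9 was -0.12, beside -0.01 over all genes tested. Below 0 were 7 of the 9 estimates, beside 6605 of the 12621 genes tested. The 7 include Apaf1 (-0.0024) and Bcl2l1 (-0.0077), whose signs turned under other scalings. In 4 of the 9 (Htra2, Diablo, Cycs and Bak1) both Lgr5-CREPTKO mice lay below both Lgr5-CREPTWT mice, against 31.0% of all genes tested. In none did both lie above, against 25.6%. At the combined threshold of the study, an adjusted p under 0.05 and an absolute log2 fold change over 1, none of the 9 passed, against 1.14% of all genes in the same limma fit.

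**Figure D1:**
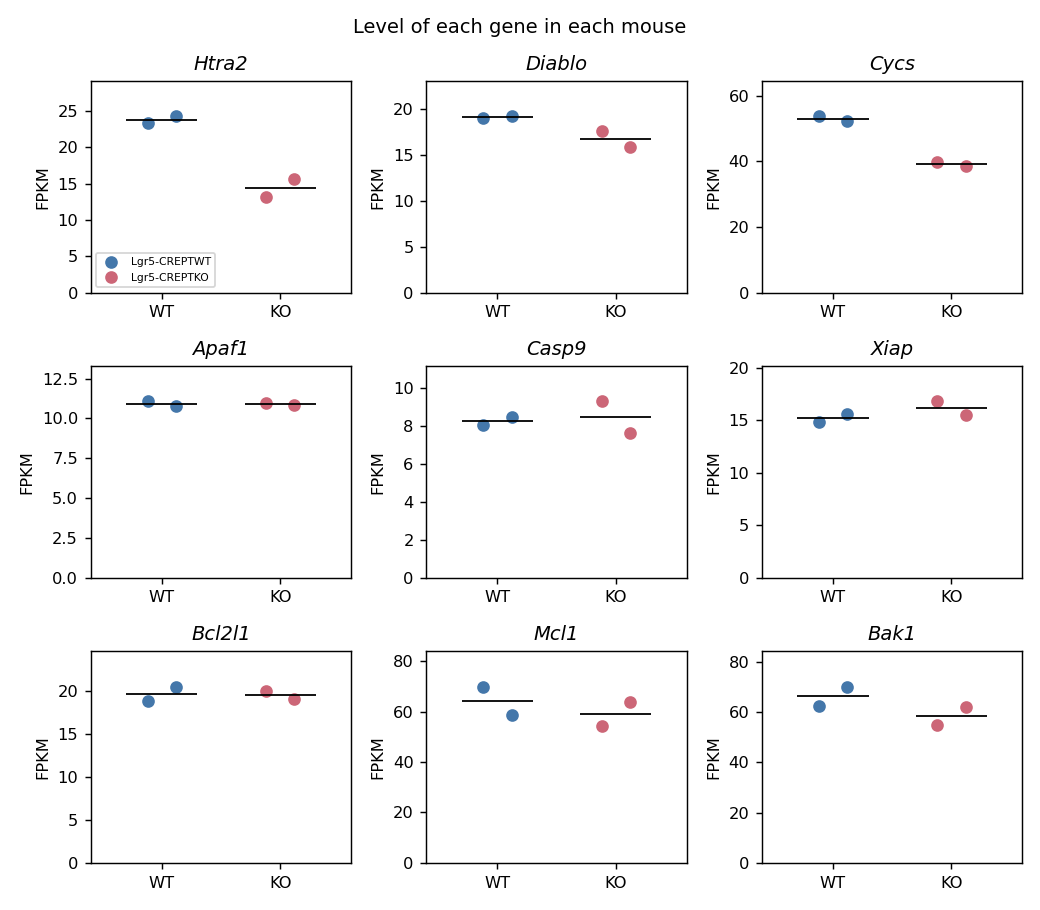
FPKM of each of the 9 genes in each mouse, with 1 panel per gene, 1 point per mouse and a line at the mean of each genotype. Htra2 and Cycs show the widest separation, with Htra2 at 23.32 and 24.29 FPKM against 13.18 and 15.59, whereas the points of Apaf1 lie between 10.77 and 11.07 FPKM in all 4 mice.

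Among the released factors, Htra2 fell. Htra2 lies at chr6:83051266-83054571 on the minus strand of GRCm38.p6, and its main transcript has 8 exons and 1725 bases. It was at 23.32 and 24.29 FPKM in the Lgr5-CREPTWT mice and at 13.18 and 15.59 FPKM in the Lgr5-CREPTKO mice. Both knockout values were well below both control values, and the gap between the genotypes was wider than the spread within either. The means were 23.8 ± 0.686 and 14.4 ± 1.7 FPKM (SD, n = 2 each), a log2 fold change of -0.71 ± 0.107 (SE; 95% interval -0.99 to -0.44; limma adjusted p = 0.046), which is 0.611 of the Lgr5-CREPTWT level. These values stand for about 724 and 764 fragments in Lgr5-CREPTWT and 415 and 470 in Lgr5-CREPTKO libraries, so counting error was at most 4.91% of a value. The call sat close to the threshold. It was lost when any 1 of the 4 mice was left out (log2 fold change -0.83 to -0.59, limma adjusted p 0.159 to 0.313), and with the replicate number as a block (limma adjusted p = 0.0539).

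Transcript length moved with genotype across the table. Genes of up to 2000 bases had a median log2 fold change of -0.15 (3628 genes), those from there up to 4000 bases -0.03 (4788 genes) and longer genes 0.10 (3769 genes). Spearman's rho between the log2 of transcript length and the log2 fold change was 0.36 over 12185 genes, which are not independent, and rho was 0.0472 for GC content. Htra2, the shortest of the 9 transcripts, is in the class of up to 2000 bases. After each mouse was corrected for smooth trends in length and GC content, Htra2 had a log2 fold change of -0.59 and a limma adjusted p of 0.0549. In the same fit with small RNA genes left out, Htra2 was called (limma adjusted p = 0.04). The part of transcript length in the remaining difference was not tested.

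The ends of Htra2 lie over 2 neighbouring genes transcribed from the opposite strand. Its last exons share 535 bases, 31% of the transcript, with Loxl3, a lysyl oxidase gene, and its first exon shares 51 bases, 2.96%, with Aup1, a gene of lipid droplets and endoplasmic reticulum. Whether the counting used strand is not given in the sources used here, and without strand, reads from such stretches cannot be told apart. Loxl3 was at 0.03 to 0.07 FPKM in the 4 mice, near 0 beside Htra2. Aup1 was at 71.44 and 80.22 FPKM in Lgr5-CREPTWT and at 60.27 and 70.54 FPKM in Lgr5-CREPTKO mice, a log2 fold change of -0.21 (limma adjusted p = 0.301). Both knockout values of Aup1 lay below both control values, as in 31.0% of all genes tested, although the nearest values of the 2 genotypes almost met. The part of Aup1 reads in the Htra2 values was not tested. Every stretch of 50 bases in the Htra2 transcript was absent from same-strand transcripts of other genes.

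**Figure D2:**
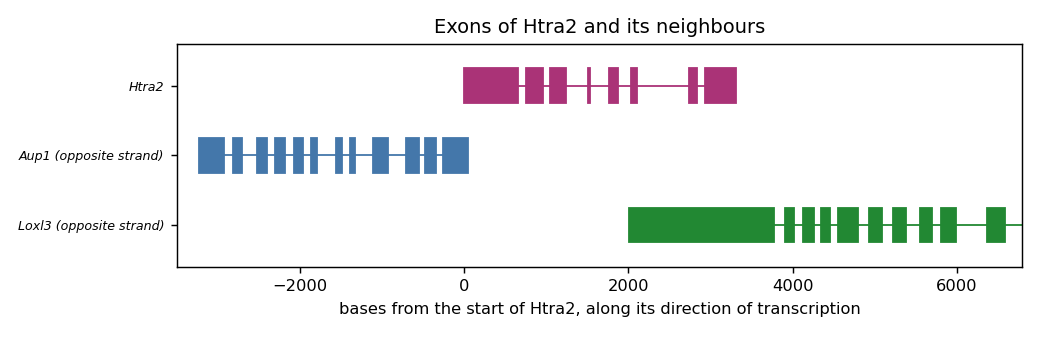
Exons (boxes) and introns (lines) of Htra2, Aup1 and Loxl3, drawn to scale, with the x axis in bases from the start of Htra2 along its direction of transcription. The first exon of Htra2 touches the first exon of Aup1 over 51 bases, and its 3′ exons lie over the 3′ end of Loxl3, with 535 exonic bases shared.

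Cytochrome c, encoded by Cycs (chr6:50562563-50566569, minus strand, 3 exons), was at 53.74 and 52.24 FPKM in the Lgr5-CREPTWT mice and at 39.93 and 38.50 FPKM in the Lgr5-CREPTKO mice. Mice of 1 genotype lay close together, and the genotypes did not overlap. The means were 53.0 ± 1.06 and 39.2 ± 1.01 FPKM (SD, n = 2 each), a log2 fold change of -0.43 ± 0.069 (SE; 95% interval -0.61 to -0.25). The limma adjusted p was 0.0505 (unadjusted p = 0.00158), just above the threshold, and 15.2% of all genes tested were lower at an unadjusted p under 0.05. Leaving out small RNA genes from the table brought Cycs under the threshold (limma adjusted p = 0.0399), while the correction for length and GC content gave -0.32 and a limma adjusted p of 0.0922. Cycs has many processed copies in the mouse genome. Of the 50-base stretches of its 3123-base transcript, 28.2% occur in same-strand transcripts of 43 other genes, and 27.6% in Gm10053, so its value is uncertain to the extent that reads were split among them.

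Diablo (chr5:123511330-123524164, minus strand, 4 exons) had the smallest difference of the released factors. It was at 19.00 and 19.19 FPKM in Lgr5-CREPTWT mice and at 17.56 and 15.82 FPKM in Lgr5-CREPTKO mice. The knockout values were the lower ones, without overlap, but they differed from each other by more than the nearer of them differed from the controls. The log2 fold change was -0.19 ± 0.0886 (SE; 95% interval -0.42 to 0.037; limma adjusted p = 0.263). After the correction for length and GC content it was -0.067 (limma adjusted p = 0.713). The Diablo transcript shares 15.3% of its 50-base stretches with 1 other gene on the same strand, Gm49027, not analysed here, so the value carries that uncertainty.

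The apoptosome genes did not differ beyond the spread between mice. Apaf1 (chr10:90989311-91082743, minus strand, 27 exons), the scaffold that cytochrome c activates, was at 11.07 and 10.77 FPKM in Lgr5-CREPTWT and at 10.97 and 10.83 FPKM in Lgr5-CREPTKO mice. Both knockout values lay between the control values. The Lgr5-CREPTKO to Lgr5-CREPTWT ratio had a 95% interval of 0.858 to 1.16 (log2 fold change -0.0024 ± 0.0852, SE; limma adjusted p = 0.991). Under 2 rescalings of the libraries the estimate was above 0, at 0.021 and 0.023, so Apaf1 has no direction here. Its value after the correction for length and GC content was -0.11 (limma adjusted p = 0.495).

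Casp9 (chr4:141793612-141815978, plus strand, 9 exons), the protease that the apoptosome switches on, was the lowest of the 9 genes. It was at 8.03 and 8.47 FPKM in Lgr5-CREPTWT and at 9.29 and 7.65 FPKM in Lgr5-CREPTKO mice. The knockout mice held both the highest and the lowest value. The log2 fold change was 0.03 ± 0.125 (SE; 95% interval -0.29 to 0.35; limma adjusted p = 0.911), and it was -0.10 without Lgr5-CREPTKO mouse 1. At most 94 bases of its transcript lie over genes of the opposite strand.

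The upstream sequences of Cycs and Apaf1 are shown because their proteins bind each other while their RNA values differed in pattern, the one without overlap between genotypes and the other with all mice alike. Each runs 5′ to 3′ along the gene, from 250 bases before the RefSeq start to 50 after it, on GRCm38.p6. Capitals mark TGACGTCA, the full palindromic letters bound by the CREB family. The Cycs window is chr6:50566520-50566819 and the Apaf1 window is chr10:91082694-91082993, both on the minus strand.
Cycs: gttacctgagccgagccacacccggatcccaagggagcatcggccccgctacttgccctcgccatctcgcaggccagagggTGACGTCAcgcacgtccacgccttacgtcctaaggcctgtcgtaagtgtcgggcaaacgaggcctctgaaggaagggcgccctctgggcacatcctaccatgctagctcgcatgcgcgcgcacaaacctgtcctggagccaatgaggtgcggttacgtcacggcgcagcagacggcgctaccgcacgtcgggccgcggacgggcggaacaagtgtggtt
Apaf1: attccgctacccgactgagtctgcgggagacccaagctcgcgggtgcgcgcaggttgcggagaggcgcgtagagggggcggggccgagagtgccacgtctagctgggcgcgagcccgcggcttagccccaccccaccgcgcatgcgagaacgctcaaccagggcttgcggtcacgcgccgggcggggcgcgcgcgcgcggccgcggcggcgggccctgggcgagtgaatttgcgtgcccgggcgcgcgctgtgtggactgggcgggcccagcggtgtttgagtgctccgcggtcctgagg
The match in the Cycs window began 169 bases before the start, and such a match was in 1.79% of 32851 RefSeq promoter windows. GC content was 65.0% in the Cycs window and 74.7% in the Apaf1 window. Windows were found for 8 of the 9 genes, and no other member's held TGACGTCA. A fixed string of letters for NRF1, a factor of many mitochondrial genes, was in 4.6% of all windows and in none of the members'. Only exact matches to that string were counted, so NRF1 sites that differ from it in any letter would be missed. Whether the members' windows, that of Cycs included, hold such sites was not tested. The E2F letters TTTCGCGC were in 0.323% of all windows and in that of 1 member, Bcl2l1. All motifs were searched on both strands. A match describes these letters only.

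Xiap (chrX:42059613-42109664, plus strand, 6 exons), which holds caspases inactive until Diablo or Htra2 displaces it, was at 14.85 and 15.57 FPKM in Lgr5-CREPTWT and at 16.81 and 15.51 FPKM in Lgr5-CREPTKO mice. Mouse 1 of Lgr5-CREPTKO was above both controls and the other lay between them. The log2 fold change was 0.084 ± 0.0877 (SE; 95% interval -0.14 to 0.31; limma adjusted p = 0.606). The interval of Xiap lay within 1.5-fold of no change either way, as did those of 7 of the 9 genes in all, against 58.9% of all genes tested. All 9 intervals lay within 2-fold.

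**Figure D3:**
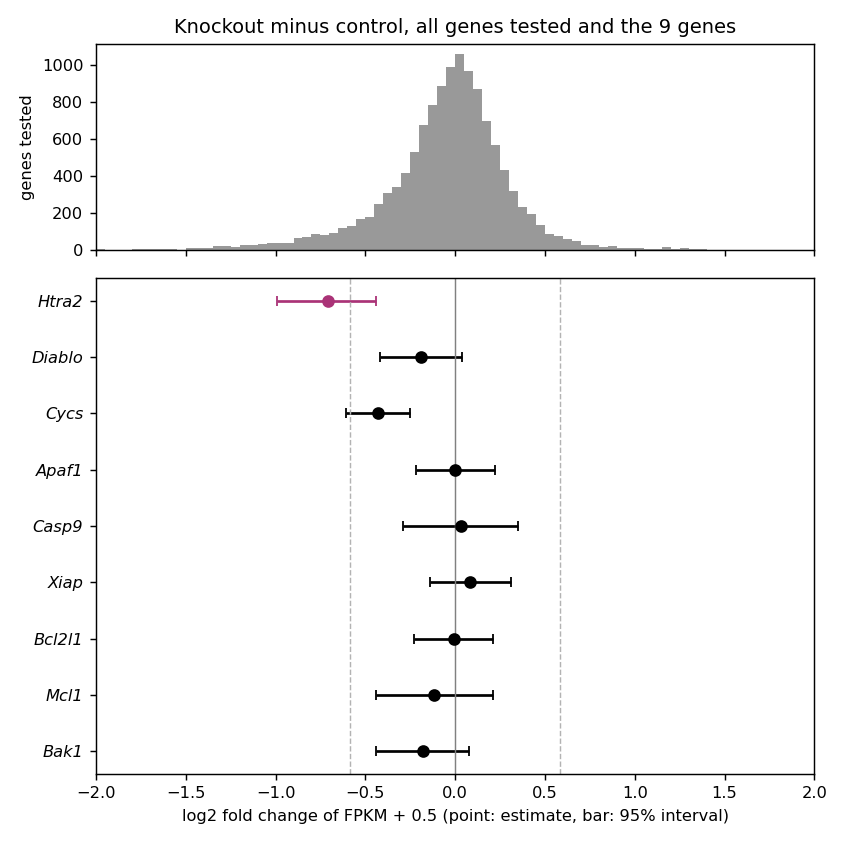
Log2 fold change of each of the 9 genes, Lgr5-CREPTKO minus Lgr5-CREPTWT, on the log2(FPKM + 0.5) scale, with bars for the 95% interval from limma. The intervals of Htra2 (-0.99 to -0.44) and Cycs (-0.61 to -0.25) lie below 0, and those of the other 7 genes include 0.

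The guards of the outer membrane had overlapping genotypes. Bcl2l1 (chr2:152758732-152833803, minus strand, 3 exons) was at 18.85 and 20.56 FPKM in Lgr5-CREPTWT and at 20.04 and 19.13 FPKM in Lgr5-CREPTKO mice. Both knockout values lay between the controls, and the log2 fold change was -0.0077 ± 0.086 (SE; 95% interval -0.23 to 0.21; limma adjusted p = 0.969), with a sign that turned under other scalings (0.005 to 0.017) and under the correction for length and GC content (0.071). Mcl1 (chr3:95656944-95663179, plus strand, 3 exons), a guard whose protein is short-lived, varied most from mouse to mouse, at 69.89 and 58.62 FPKM in Lgr5-CREPTWT and at 54.25 and 63.93 FPKM in Lgr5-CREPTKO mice. The mice of the 2 genotypes interleaved. Its log2 fold change was -0.12 ± 0.127 (SE; 95% interval -0.44 to 0.21; limma adjusted p = 0.612), and it was 0.0066 without Lgr5-CREPTWT mouse 1. At an estimated 3405 to 4328 fragments, counting error was at most 1.71% of a Mcl1 value, well under the spread between mice of 1 genotype.

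Bak1 (chr17:27019812-27028627, minus strand, 6 exons), which with Bax forms the pore in the outer membrane, was at 62.56 and 70.19 FPKM in Lgr5-CREPTWT and at 54.84 and 62.22 FPKM in Lgr5-CREPTKO mice. The genotypes did not overlap, although the lower control and the higher knockout mouse nearly met. The log2 fold change was -0.18 ± 0.101 (SE; 95% interval -0.44 to 0.08; limma adjusted p = 0.338), and -0.11 after the correction for length and GC content (limma adjusted p = 0.484). The Bak1 transcript shares 614 bases, 25.7%, with exons of Ggnbp1 on the opposite strand, itself at 2.59 to 4.69 FPKM. Bax, named here after its values were seen, was at 57.23 and 63.87 FPKM in Lgr5-CREPTWT and at 64.44 and 56.45 FPKM in Lgr5-CREPTKO mice, a log2 fold change of -0.0035 (limma adjusted p = 0.989).

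By level, the pore former and the short-lived guard led. In Lgr5-CREPTWT cells the order of mean FPKM was Bak1 (66.4), Mcl1 (64.3), Cycs (53.0), Htra2 (23.8), Bcl2l1 (19.7), Diablo (19.1), Xiap (15.2), Apaf1 (10.9) and Casp9 (8.25). Bak1 and Mcl1 overlapped between mice, as did Bcl2l1 and Diablo, and the other neighbours did not. In Lgr5-CREPTKO cells Htra2 stood in place 7 instead of place 4, with its 2 mice below both mice of Bcl2l1 and overlapping those of Xiap. The places of Cycs, Apaf1 and Casp9 were the same in both genotypes, while Mcl1 (59.1 FPKM) and Bak1 (58.5 FPKM) overlapped and exchanged places.

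Ratios within a mouse do not depend on how its library was scaled. They can still carry the trend with transcript length, because Xiap (6834 bases) is longer than Htra2 (1725 bases) and Diablo (2588 bases). After the correction for length and GC content the log2 fold changes were -0.59 for Htra2, -0.067 for Diablo and 0.075 for Xiap. The ratios below are without that correction, and the part of transcript length in them was not tested. Htra2 was above Xiap in Lgr5-CREPTWT mice, with FPKM ratios of 1.57 and 1.56, and near or below it in Lgr5-CREPTKO mice, with 0.784 and 1.01. The ratio was thus lower in both knockout mice, by -0.80 on the log2 scale. Diablo to Xiap was 1.28 and 1.23 in Lgr5-CREPTWT and 1.04 and 1.02 in Lgr5-CREPTKO mice, a log2 difference of -0.27 without overlap. Bak1 to Bcl2l1 was 3.32 and 3.41 against 2.74 and 3.25 (log2 difference -0.17, without overlap). The ratios of Bak1 to Mcl1 (0.895 and 1.2 against 1.01 and 0.973) and of Casp9 to Apaf1 (0.725 and 0.786 against 0.847 and 0.706) overlapped between genotypes. These ratios were not tested, and each shows only that its 2 genes changed unequally or alike in FPKM.

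**Figure D4:**
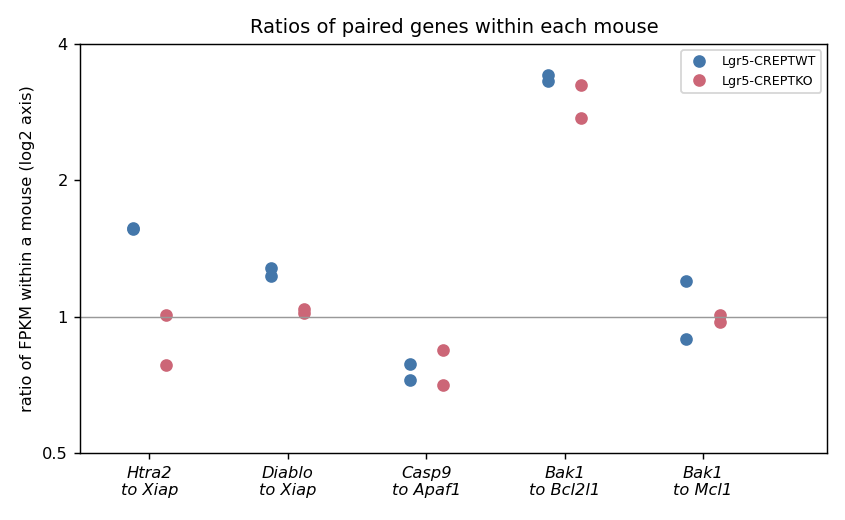
Ratio of FPKM within each mouse for 5 pairs of the 9 genes, on a log2 axis with 1 point per mouse. The Htra2 to Xiap ratio is 1.57 and 1.56 in Lgr5-CREPTWT mice and 0.784 and 1.01 in Lgr5-CREPTKO mice, while Bak1 to Mcl1 and Casp9 to Apaf1 overlap.

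The wider pathway was read from 67 other genes in 9 lists, also chosen with earlier results of these data known. Of the 67 genes, 64 were in the table and 58 were tested. Of these 58, 1 was called higher, Bbc3, and none lower, against 0.412% and 2.67% of all genes tested. At an unadjusted limma p under 0.05, 10 were lower and 8 higher, against 15.2% and 9.27% of all genes. Their median log2 fold change was -0.022, close to that of all genes.

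Bbc3 (Puma), a BH3-only protein induced by p53 that frees Bak1 and Bax from their guards, rose. It was at 7.50 and 5.70 FPKM in Lgr5-CREPTWT and at 13.12 and 13.84 FPKM in Lgr5-CREPTKO mice. Both knockout values were well above both controls, and the log2 fold change was 0.99 ± 0.148 (SE; limma adjusted p = 0.046). Its call, like that of Htra2, was lost without any 1 mouse (0.80 to 1.17, limma adjusted p 0.213 to 0.305) and with the replicate block (limma adjusted p = 0.0571). Of the 7 BH3-only genes tested, 4 estimates were below 0 and 3 above. Bmf, a BH3-only protein tied to the cytoskeleton, had the largest estimate, from 1.62 and 3.33 to 0.98 and 0.64 FPKM (log2 fold change -1.13, limma adjusted p = 0.135).

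No gene of the other 8 lists was called by limma in either direction. The 2 other guards tested, Bcl2 (log2 fold change 0.39, limma adjusted p = 0.259) and Bcl2l2 (0.074, limma adjusted p = 0.666), had estimates above 0. Among 5 further genes of the outer membrane, Bok, a pore former related to Bak1, had -0.47 (limma adjusted p = 0.0918) and the channel Vdac1 had -0.074 (limma adjusted p = 0.537). Of 3 further intermembrane factors tested, the nuclease Endog had -0.15 (limma adjusted p = 0.436) and Aifm2 0.072 (limma adjusted p = 0.784).

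Of 10 genes for other mitochondrial proteases and factors linked to them, 4 estimates were below 0 and 6 above. Hax1, which aids the processing of Htra2, was at 37.89 and 40.35 FPKM in Lgr5-CREPTWT and at 32.06 and 31.46 FPKM in Lgr5-CREPTKO mice (log2 fold change -0.30, limma adjusted p = 0.0979). Clpp, a matrix protease, went from 43.00 and 42.44 to 34.87 and 35.50 FPKM (-0.28, limma adjusted p = 0.0954). Neither passed the test, though the genotypes of both were apart. The 10 relatives and modulators of Xiap were divided evenly, with Birc3 at -0.48 (limma adjusted p = 0.114) and Birc6, a very large IAP protein that also targets Htra2, at 0.43 (limma adjusted p = 0.123).

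Of 9 other caspases, 8 estimates were below 0, beside 6605 of the 12621 genes tested, and the median log2 fold change was -0.17. At an unadjusted limma p under 0.05, 2 were lower and 1 higher, against 15.2% and 9.27% of all genes. The largest estimates were those of Casp14, a skin caspase at only 0.21 to 1.08 FPKM (log2 fold change 0.80, limma adjusted p = 0.181), and Casp12 (-0.63, limma adjusted p = 0.151). In the death receptor route, 5 of 8 estimates were below 0, led by the adaptor Fadd (-0.53, limma adjusted p = 0.0741) and the receptor Fas (-0.39, limma adjusted p = 0.453). All 4 genes that set the turnover of Mcl1 protein had estimates above 0, as did 6016 of the 12621 genes tested. Huwe1, a ubiquitin ligase for Mcl1, was at 42.41 and 37.35 FPKM in Lgr5-CREPTWT and at 58.34 and 55.05 FPKM in Lgr5-CREPTKO mice (0.50, limma adjusted p = 0.0604), and Usp9x, which removes ubiquitin from Mcl1, had 0.25 (limma adjusted p = 0.16). Huwe1, Usp9x and Birc6 are long transcripts, in the length class whose median was above 0.

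**Figure D5:**
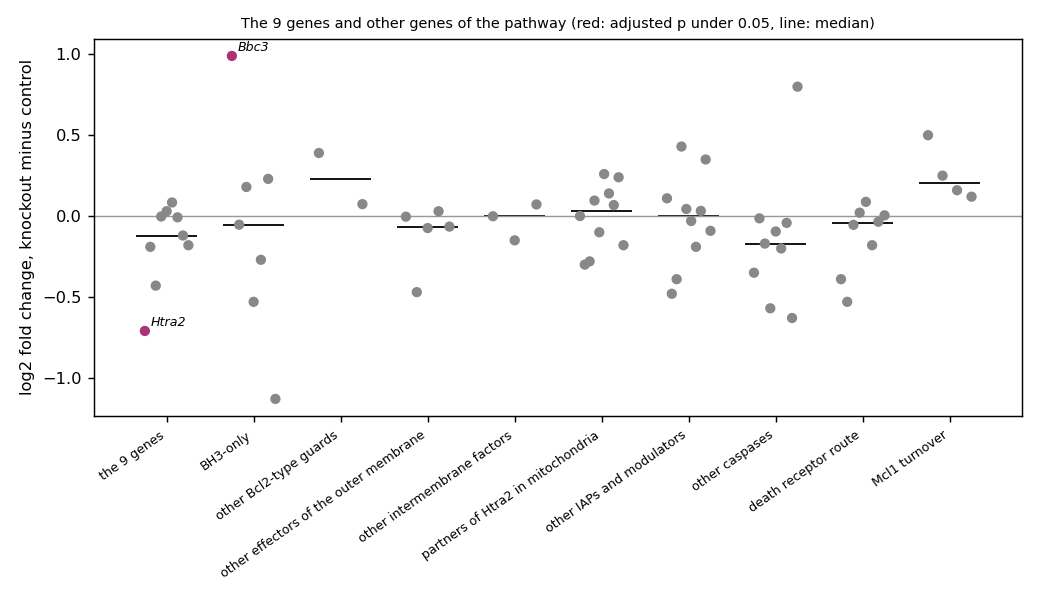
Log2 fold change, Lgr5-CREPTKO minus Lgr5-CREPTWT, of the 9 genes and of the 58 other pathway genes tested, with 1 point per gene, a line at each list's median and red for a limma adjusted p under 0.05. Htra2 at -0.71 and Bbc3 at 0.99 are the called genes, and the list medians lie between -0.17 and 0.23.

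The sorted cells were measured in bulk, where fewer cells of a type and less RNA per cell cannot be told apart. Levels of several cell type markers differed between the libraries in which Htra2 was compared. The summed level of the 6 goblet markers was 1336 and 2154.5 FPKM in Lgr5-CREPTWT and 742 and 771 FPKM in Lgr5-CREPTKO mice, and in all 6 both knockout mice lay below both controls, against 31.0% of all genes tested. Of these 6, 1 was called lower, Spink4, against 2.67% of all genes. That of the 5 enteroendocrine markers was 111 and 117 FPKM against 41.2 and 51.6 FPKM, with 3 of the 5 called lower. The 4 tuft markers tested summed to 16.8 and 33.0 FPKM against 13.9 and 5.74 FPKM, and none was called. Paneth markers ranged from 752 to 1008 FPKM in Lgr5-CREPTWT and from 564 to 1796 FPKM in Lgr5-CREPTKO mice, and enterocyte markers from 132 to 209 and from 121 to 255 FPKM. Leukocyte markers summed to at most 8.52 FPKM and stromal and endothelial markers to at most 0.55 FPKM in any mouse. Of the 5 stem cell markers, all had both knockout mice above both controls, against 25.6% of all genes tested, and none was called by limma. Their log2 fold changes were 0.40 for Lgr5, 0.073 for Olfm4, 0.32 for Ascl2, 0.17 for Smoc2 and 0.43 for Axin2. At an unadjusted limma p under 0.05, 3 of the 5 (Lgr5, Ascl2 and Axin2) were higher, against 9.27% of all genes tested. No listed marker in the table was at 0 in all mice. The part of cell composition in the differences of Htra2, Cycs and Bbc3 was not tested.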

How the data were processed

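The authors deposited 1 table of FPKM values (rows are gene symbols, columns are mice) from RNA of Lgr5-GFPhigh cells of 2 Lgr5-CREPTWT and 2 Lgr5-CREPTKO mice. By the RNA-seq methods of the study, whose mapping section names crypts and intestines and does not mention the sorted cells, reads of a BGISEQ machine were mapped to GRCm38.p6 transcripts with Bowtie2 and quantified with RSEM; the submitters' processing notes also name HISAT and mm10. Versions and strandedness are not given in the sources used here. FPKM divides by transcript length and library total and holds no counts, so the count model of the study could not be fitted. Depth was estimated from the steps of low values, and estimated fragments cover counting error only.

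Mice were grouped by their sample titles, which match the columns. The log2(FPKM + 0.5) values of genes that averaged 0.5 FPKM or more were compared with limma 3.58.1 in R 4.3.3 (lmFit, eBayes with trend), adjusted over all 12621 genes tested. The method was run on simulated data with planted changes larger than that of Htra2 and no trend with transcript length. That run does not bear on calls near the threshold. Members and lists were chosen with earlier results of these data known. Named genes are the 9 members, Rprd1b, pathway genes with adjusted p under 0.05, the 2 with the largest absolute log2 fold change in each list, and the 3 genes nearest to Htra2 over the 4 mice, of which 1 is not reported here. Pseudocount, filter, scaling, trend, robust variance, small RNA genes, replicate block, threshold and each mouse left out were varied. A correction for length and GC content of transcripts (mgcv 1.9.3) and combinations were added after the data were seen. Positions and promoters came from RefSeq, and exons, lengths and shared sequence from GENCODE transcripts on the same assembly, with pandas 2.3.3 in Python 3.11.15. Mice numbered alike are different animals, and the correlation of their deviations was r = -0.0266 across genes. With 2 mice a genotype, this correlation cannot show whether mice numbered alike shared a batch or handling. The sources used here do not give that. The main fit did not pair them, and the replicate block was run as an alternative.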

Additional observations from a re-analysis of the deposited data

How the results depend on the processing

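Of all genes tested, 389 were called, and Htra2 alone of the 9 members. The counts over all genes and over the members were 0 and 0 with no filter on low values, 4 and 0 without the intensity trend, 651 and 2 with robust variances, 623 and 2 with small RNA genes left out, 183 and 0 with the replicate block, 729 and 2 with the replicate block and small RNA genes left out, 106 and 0 with the correction for transcript length and GC content, 3 and 0 with that correction and the replicate block, and 144 and 0 at the threshold of the study. With a mean of at least 1 FPKM, 2 members were called. With any 1 mouse left out the counts were 0 and 0, and 0 to 17 and 0 with small RNA genes also left out. The causes were not tested.

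Htra2 kept its sign throughout and was called in 9 of 14 alternatives with all 4 mice (adjusted p 0.0242 to 0.13). It stayed at -0.71 but lost its call with no filter (adjusted p = 0.13), without the trend (0.0861) and with the replicate block (0.0539), and was at -0.59 with the length and GC correction (0.0549, and 0.113 with the block). With 1 mouse left out it was at -0.83 to -0.59, and at -0.83, -0.74, -0.68 and -0.59 with small RNA genes also left out, not called in any. Cycs, at -0.43 throughout these, was called with a mean of at least 1 FPKM (adjusted p = 0.0489), robust variances (0.0387), small RNA genes left out (0.0399) and that together with the block (0.0478), and ranged from -0.46 to -0.40 with 1 mouse left out. Bbc3 was called in 10 of 14. The sign turned for Apaf1 with a common median (0.023) and quantile normalization (0.021), and for Bcl2l1 under the same (0.017 and 0.005) and under the correction (0.071, and 0.063 without small RNA genes, 0.071 with the block). With 1 mouse left out, with or without small RNA genes, Apaf1 was at -0.021 to 0.017, Bcl2l1 at -0.069 to 0.053, Casp9 at -0.10 to 0.16 and Mcl1 at -0.25 to 0.0066. Those above 0 were 0.0064 and 0.017 for Apaf1 and 0.025 and 0.053 for Bcl2l1, and Casp9 was below 0 at -0.0061 and -0.10. The replicate block changed no other member's call. With 2 mice a genotype, a lone mouse was assumed to vary like the other genotype, and the estimated depth limits Htra2 most of the 9, with a counting error of up to 4.91% of a value.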

Other observations

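Among the 6897 genes that averaged 10 FPKM or more, those whose pattern over the 4 mice lay nearest to that of Htra2 included Apeh, an acylpeptide hydrolase (Euclidean distance 0.0203 on the centred log2 scale), and Tkfc, a triose kinase (0.0612). Apeh was at 35.51 and 36.36 FPKM in Lgr5-CREPTWT and at 19.91 and 23.40 FPKM in Lgr5-CREPTKO mice. Tkfc was at 54.37 and 53.74 FPKM in Lgr5-CREPTWT and at 30.29 and 36.57 FPKM in Lgr5-CREPTKO mice. Like Htra2, both were lower in both knockout mice, with Lgr5-CREPTKO mouse 1 the lowest. Likeness over 4 mice is a description.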
